A study of Mus musculus with 3 samples.

Results

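The transcripts of 8 cell surface molecules through which blood leukocytes hold on to a vessel wall were compared between cultured aortic endothelial cells of mice labelled as knockouts of the serine/threonine kinase Pim1 and of wild-type mice. The set comprised Vcam1, Icam1, Selp, Sele, Mcam, Alcam, Madcam1 and Bst1, and its members were taken by gene name from the non-control probes of the array. They were represented by 13 of 41174 probes, or 8 of 27745 gene names. The labels gave the same details for both groups of cells: FVB/N strain, female, 12 weeks of age, primary mouse aortic endothelial cells grown on a gelatine coat in serum-containing medium, with RNA taken 24 hours after seeding. The groups differed by the homozygous loss of Pim1 in one and the wild-type gene in the other. Knockout RNA (Cy5) and wild-type RNA (Cy3) were hybridised together to each of 3 arrays, which the labels called biological replicates. No array had the dyes swapped, so a dye effect cannot be told apart from the genotype. The labels did not say whether animals or wild-type RNA were pooled, nor which part of Pim1 was deleted. Each p-value therefore sets a mean ratio against the variation between these 3 arrays, estimated in part from all tested probes. It covers no variation beyond that. So few arrays limit the precision. The series title names a more adhesive state of endothelial cells without Pim1 as its subject. The arrays measure transcripts of adhesion receptors and not adhesion itself.

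Leukocytes leave the blood in steps. The selectins P-selectin (Selp) and E-selectin (Sele) catch passing cells through sugar ligands and let them roll. The immunoglobulin superfamily members Icam1 and Vcam1 then hold them firmly through integrins, and Madcam1 does so for gut-homing lymphocytes in the venules of the intestine. Mcam (CD146) and Alcam (CD166) belong to the same superfamily and sit largely at contacts between cells, and Bst1 (CD157) is a surface enzyme related to Cd38 that takes part in leukocyte passage. In many vessels Vcam1, Icam1 and Sele are kept low at rest and are induced by inflammatory cytokines through NF-kB.

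The measurements rest on 60-base probes, and the last 30 bases at the 3′ end of those for the genes that were tested are shown, so that it can be seen that the probes of a gene read different stretches of its transcript. Capitals mark AATAAA, the signal for cleavage and polyadenylation near the end of most messenger RNAs.
Vcam1 probe 1: cactgggttgactttcaggtactactttct
Vcam1 probe 2: cgtcattgaggatattggaaaagctcttgt
Icam1 probe 1: agaaacctttcctttgaatcAATAAAgttt
Icam1 probe 2: tcaggatatacaagttacagaaggctcagg
Selp probe 1: atgtttcatatcaatgaggttgtttacacc
Selp probe 2: aggactttgagctactgggatctgaaaatg
Mcam probe 1: ggattaggcttataggaatgttagtaccaa
Mcam probe 2: cttgtgacgccagagcttctggagacaggt
Alcam: tattccagagcacgatgaggcagacgatat
Bst1: tcatgattcaagaaacaaggcattcatcta
The brighter Icam1 probe carries AATAAA from base 51 of its 60, and 3.1% of all 41174 probes hold these letters within their last 30 bases. A 3rd Vcam1 probe, designed on a cDNA clone and ending in acAATAAAccattctccataaagcaaacca, stayed at background in both channels of all arrays and was not tested.

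The array files place probes on the mm8 build. The Vcam1 probes lie on the minus strand at chr3:116102302-116102361 (probe 1), chr3:116118039-116118098 (probe 2) and chr3:116109058-116109117 (probe 3). The Icam1 probes lie at chr9:20779144-20779203 and chr9:20778248-20778307, and those of Mcam, also on chromosome 9, at chr9:43893433-43893492 and chr9:43891378-43891437. The Selp probes lie at chr1:165986204-165986263 and chr1:165978102-165978161, beside that of Sele at chr1:165894270-165894329. The Bst1 probe lies at chr5:44130474-44130533. The Alcam probe, on the minus strand, is placed at chr16:52188143-52190020 and that of Madcam1 at chr10:79068267-79068578. These spans of 1878 and 312 bases are longer than a 60-base probe, so both probes align in separate pieces, while the others align as 1 block of 60 bases. Whether a probe lies in a coding exon or a UTR was not analysed here, and no member is on chromosome X or 17.

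Promoter windows of 250 bases before to 50 after the annotated start were taken from RefSeq (GRCm38.p6), in which 6 of the 8 members had an entry and Vcam1 and Bst1 did not. The windows of Icam1 (chr9:21015690-21015989, plus strand), Selp (chr1:164115014-164115313, plus strand), Mcam (chr9:44134408-44134707, plus strand) and Alcam (chr16:52453032-52453331, minus strand) are printed because these 4 transcripts fell. Capitals mark matches, on either strand, to the 6 motifs searched. These were the NF-kB site and the STAT-binding element TTCNNNGAA. The NF-kB site was searched in 1 strict form: GGG, A or G, any 2 bases, 2 of C or T, then CC. Sites that depart from this form were left unmarked, so a window without a match may still hold one. The AP-1 site was searched as TGACTCA and the TATA box as TATAAA. The GC box was searched as GGGCGG, and the E-box as CACGTG.
Icam1: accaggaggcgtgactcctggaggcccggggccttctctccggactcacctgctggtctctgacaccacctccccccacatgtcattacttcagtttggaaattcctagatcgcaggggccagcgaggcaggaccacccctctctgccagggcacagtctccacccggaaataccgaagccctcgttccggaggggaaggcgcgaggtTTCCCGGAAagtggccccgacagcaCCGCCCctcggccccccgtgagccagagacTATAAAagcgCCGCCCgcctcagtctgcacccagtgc
Selp: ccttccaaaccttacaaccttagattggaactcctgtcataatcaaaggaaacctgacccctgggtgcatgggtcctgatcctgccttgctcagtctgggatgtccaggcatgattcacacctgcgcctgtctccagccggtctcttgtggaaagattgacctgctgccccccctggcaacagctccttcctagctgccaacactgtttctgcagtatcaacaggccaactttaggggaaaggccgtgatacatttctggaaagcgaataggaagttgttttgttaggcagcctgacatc
Mcam: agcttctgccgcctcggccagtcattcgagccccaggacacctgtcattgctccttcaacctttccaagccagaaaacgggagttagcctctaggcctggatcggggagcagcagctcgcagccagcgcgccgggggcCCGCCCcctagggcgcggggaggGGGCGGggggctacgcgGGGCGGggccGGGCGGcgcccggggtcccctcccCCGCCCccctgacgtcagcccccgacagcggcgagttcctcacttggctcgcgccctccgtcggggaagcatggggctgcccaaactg
Alcam: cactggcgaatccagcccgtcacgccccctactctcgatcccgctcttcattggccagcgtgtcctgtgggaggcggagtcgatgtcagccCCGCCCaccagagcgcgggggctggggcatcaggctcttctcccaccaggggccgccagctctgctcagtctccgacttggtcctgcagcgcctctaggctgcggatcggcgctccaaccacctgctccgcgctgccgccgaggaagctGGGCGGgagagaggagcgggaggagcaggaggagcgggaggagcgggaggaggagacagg
The Icam1 window held TTCCCGGAA at bases 209 to 217, TATAAA at bases 264 to 269 and 2 GC boxes. The Mcam window held 5 GC boxes, that of Alcam 2, and the Selp window none of the 6 motifs. Of the windows not printed, Madcam1's held 2 NF-kB sites and that of Sele 1 STAT element, 1 AP-1 site and 1 TATAAA. Over 32851 promoter windows of the same length, 8.46% held an NF-kB site, 8.3% TTCNNNGAA, 5.2% an AP-1 site, 13.6% TATAAA, 35.7% a GC box and 7.15% the E-box. No matches overlapped in the printed windows. These matches describe letters in the sequence and say nothing about binding.

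On the 3 arrays, 53.8% to 57.2% of probes exceeded background clearly for the knockout and 58.4% to 62.5% for the wild type, and no spot was saturated. The log2 ratios of arrays 2 and 3 correlated across probes at r = 0.905, and array 1 stood apart from both (r = 0.681 and 0.699). The sense probe of the targeted gene, Pim1, read −0.97, −1.16 and −0.99 on the log2 scale, a fall of 2.05-fold (limma adjusted p = 0.00296). It was still above background in the knockout channel on all 3 arrays, and with the deleted part not stated a probe outside it would check nothing. Xist, the RNA that coats an inactive X chromosome, was at least 168-fold lower in the knockout channel, and the Y-linked Eif2s3y was at least 28.1-fold and Ddx3y at least 12.1-fold higher there, although both groups were labelled female. Sex and genotype therefore cannot be told apart in any value below. Such bounds set the bright channel against the dim channel's own signal or the lowest that passed as above background, whichever was higher. For Xist the bound equalled the mean ratio. All are open to dye bias. Of 15 endothelial markers, 4 were well above background on no array in either channel. These were Pecam1, Cdh5, Tie1 and Erg, which are among those that define the cell type. A further 5 (Tek, Vwf, Cldn5, Emcn and Robo4) were above it on 1 wild-type array only. The remaining 6 (Kdr, Flt1, Esam, Eng, Egfl7 and Nos3) were tested. On all arrays, 4 of the 15 had a probe above background in the knockout and 5 in the wild type. Flt1, Eng and Egfl7 were above it on all 3 arrays in both channels. That the cultures were endothelial rests on the labels. In bulk RNA, fewer cells with a transcript and less of it per cell cannot be told apart.

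The members moved in opposite directions. Vcam1 and Bst1 rose in the knockout, and Icam1, Mcam, Selp and Alcam fell. Madcam1 and Sele were too dim to test. All 6 tested genes passed at an adjusted p under 0.05 (limma, Benjamini-Hochberg adjustment over all 25076 tested probes), against 18.3% of the 16365 gene names tested on the array. The 2 rises stand beside 8.02% of genes higher and the 4 falls beside 10.3% lower. By probe, 10 of 13 were tested and 9 passed, 3 as higher and 6 as lower, against 17.1% of all tested probes. A probe was tested where it was well above background in the same channel on at least 2 arrays, and all 6 tested genes were above it in both channels on every array. Their median log2 ratio was −1.33, against −0.01 over all genes. The members were chosen with results of these data known, so these shares describe the set and do not test it.

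**Figure D1:**
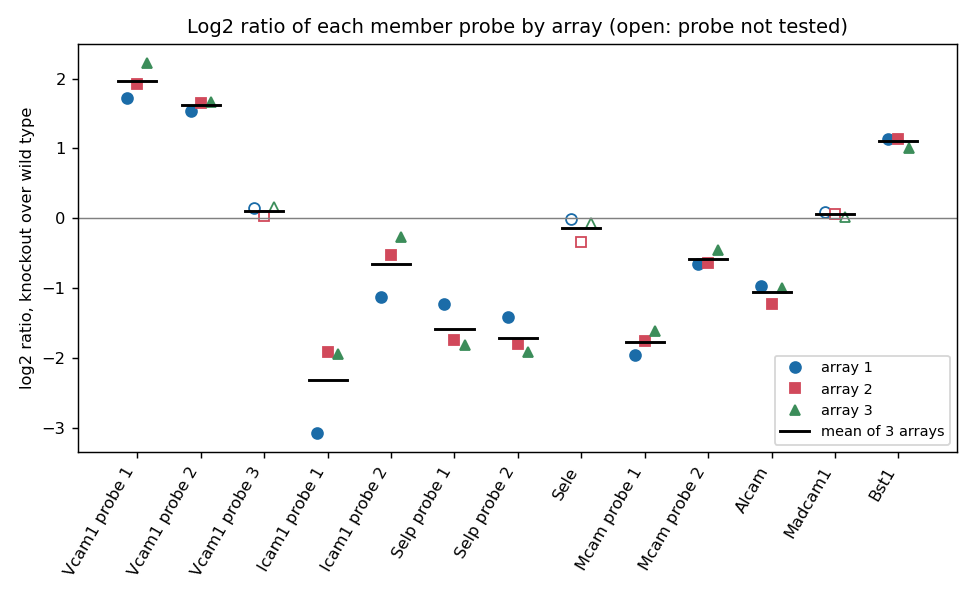
Log2 ratio of knockout over wild type (y axis) for each of the 13 member probes (x axis), with 1 symbol per array, a bar at the mean of 3 arrays and open symbols for probes not tested. The Vcam1 and Bst1 probes that were tested lie above 0 on every array and the tested probes of Icam1, Selp, Mcam and Alcam below 0; the Icam1 probes show the widest spread, with array 1 lowest.

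Vcam1, the endothelial ligand of the leukocyte integrin α4β1, gave the larger of the rises. Its brighter probe had log2 ratios of 1.72, 1.92 and 2.23 on arrays 1, 2 and 3. In the knockout channel the log2 level was 15.37, 15.16 and 15.25, and in the wild-type channel 13.65, 13.24 and 13.03. The genotypes did not overlap, and the spread between arrays lay mainly in the wild-type channel (SD 0.32, against 0.1 in the knockout). The rise was 3.88-fold (log2 ratio 1.96 ± 0.25, SD, n = 3 arrays; limma adjusted p = 0.000931). The second probe, which reads another stretch of the transcript, rose 3.07-fold, with ratios of 1.54, 1.65 and 1.66 (1.62 ± 0.07, adjusted p = 0.000678). Here and below ± gives the SD over the 3 arrays.

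Icam1, the ligand of the β2 integrins LFA-1 and Mac-1, moved the other way and gave the largest fall of the set. Its brighter probe, printed in 10 spots on each array, read −3.08, −1.92 and −1.94. The knockout channel was even, at 7.03, 7.12 and 7.2, and the wild-type channel read 10.11, 9.04 and 9.14. As measured, the lower ratio of array 1 lay mainly in the wild-type channel. The knockout levels were not far above that of Madcam1, a probe at background (knockout mean 6.31). There the offset used narrows differences between arrays. The mean fall was 4.97-fold (log2 ratio −2.31 ± 0.66, adjusted p = 0.0045). Across the 10 spots the ratio ran from −3.29 to −2.9 on array 1, from −2.1 to −1.68 on array 2 and from −2.08 to −1.84 on array 3. The SD between spots was 0.07 to 0.14, well under the difference between array 1 and the others.

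The other Icam1 probe was dim. All 3 arrays placed it at background for the knockout and above background for the wild type. Its ratios of −1.13, −0.53 and −0.27 were again lowest on array 1. The mean fall of this probe was 1.57-fold, which its bound equalled, and it did not pass (−0.65 ± 0.44, adjusted p = 0.0643). The mean of both probes was −1.48 (adjusted p = 0.0118).

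**Figure D2:**
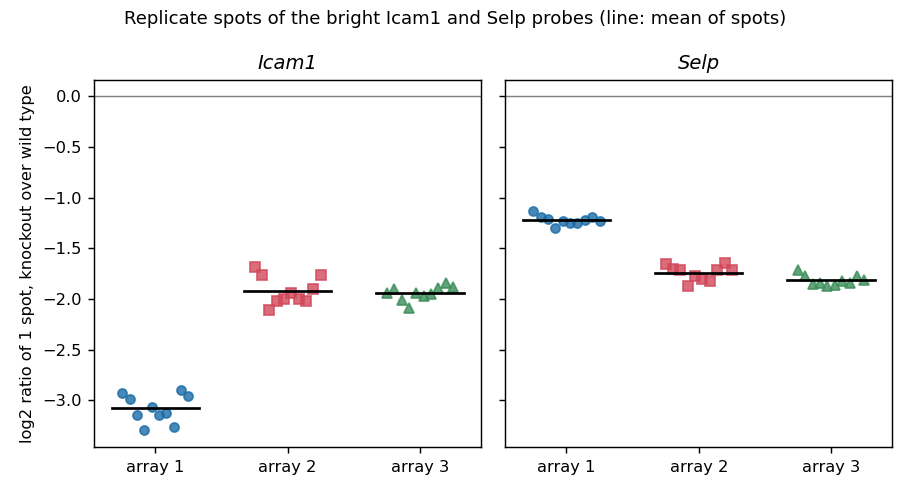
Log2 ratio of knockout over wild type in each of the 10 spots of the brighter Icam1 probe (left) and Selp probe (right) on the 3 arrays, with a line at the mean of the spots. Spots of 1 array lie close together, with SDs of 0.05 to 0.14; array 1 is lower than the others for Icam1 and higher, nearer 0, for Selp.

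Selp encodes P-selectin, which endothelial cells store in Weibel-Palade bodies and bring to the surface on stimulation. The brighter probe, also printed in 10 spots, read −1.22, −1.74 and −1.81. Its level was 9.69, 8.66 and 8.57 in the knockout channel and 10.91, 10.4 and 10.38 in the wild type. Array 1 was the highest in both channels, by more in the knockout, so its ratio was the smallest of the 3. Even so, the highest knockout value lay below the lowest wild-type value. The fall was 3.01-fold (−1.59 ± 0.32, adjusted p = 0.00273). The second Selp probe repeated both features. Its ratios were −1.41, −1.8 and −1.91, a fall of 3.27-fold (−1.71 ± 0.26, adjusted p = 0.00149), and its knockout level on array 1 (8.35) stood above those on arrays 2 and 3 (7.36 and 7.29).

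Sele, the cytokine-induced selectin of endothelium, was at the background. It was well above it on no array in the knockout channel and on 1 in the wild type. Its ratios were −0.01, −0.34 and −0.07, with channel levels between 6.11 and 6.46. Without the filter on dim probes the adjusted p was 0.468, which for a probe at background does not show that the genotypes were alike. Madcam1 was well above background on no array in either channel, with ratios of 0.09, 0.06 and 0.02 (adjusted p = 0.665 without the filter).

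Mcam, an immunoglobulin CAM of endothelial junctions, fell with little spread between arrays. Its brighter probe read −1.95, −1.75 and −1.61, from knockout levels of 7.19, 7.09 and 7.19 and wild-type levels of 9.14, 8.83 and 8.8. The genotypes did not overlap. The fall was 3.41-fold (−1.77 ± 0.17, adjusted p = 0.000753). The other probe, above background in the knockout on 2 arrays only, fell 1.49-fold (−0.66, −0.64 and −0.45; −0.58 ± 0.12, adjusted p = 0.0176). Both probes passed as lower, but their sizes differed, and their mean was −1.17 (adjusted p = 0.00237).

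Alcam, the ligand of the lymphocyte receptor Cd6, had 1 probe. It read −0.97, −1.23 and −1. Knockout levels were 8.98, 8.84 and 9.09 and wild-type levels 9.96, 10.07 and 10.09, with no overlap. The fall was 2.09-fold (−1.06 ± 0.14, adjusted p = 0.0032).

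Bst1, the surface NAD-metabolising enzyme, rose alongside Vcam1. Its single probe read 1.14, 1.14 and 1.01. Levels were 11.79, 11.38 and 11.2 in the knockout and 10.65, 10.24 and 10.19 in the wild type. Array 1 was the highest in both channels by a similar amount, which left the ratio even. The rise was 2.14-fold (1.1 ± 0.07, adjusted p = 0.0022).

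**Figure D3:**
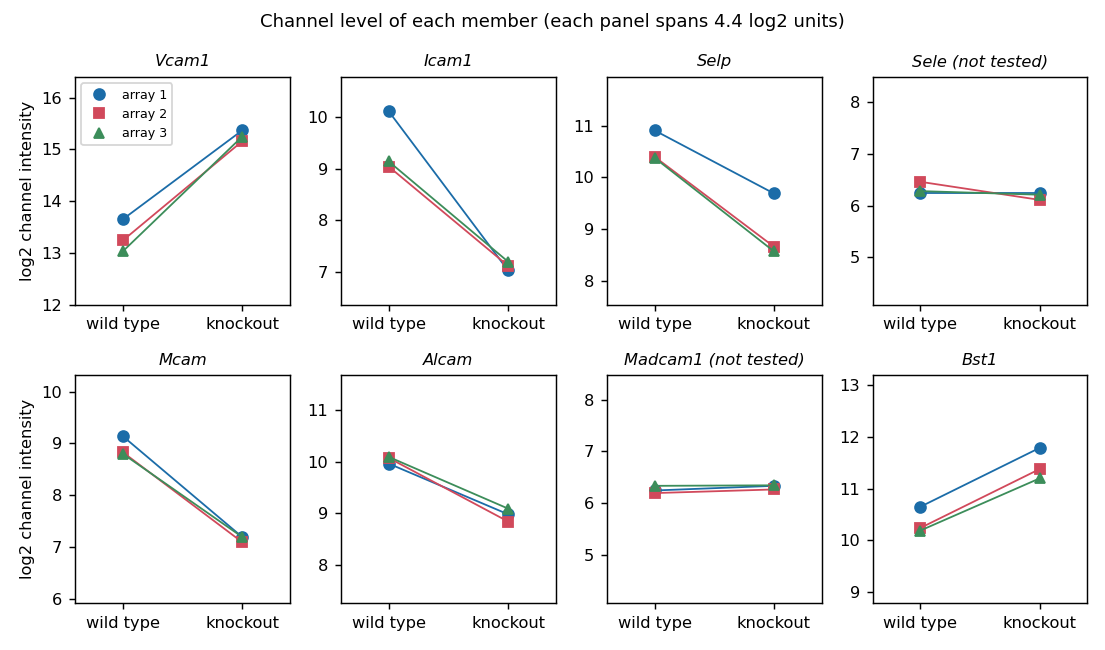
Log2 channel intensity (y axis) of each member's brightest probe in wild type and knockout, with a line joining the channels of each array; every panel spans the same number of log2 units, and levels are not comparable between panels because probes differ. Vcam1 and Bst1 rise from wild type to knockout on all 3 arrays, Icam1, Selp, Mcam and Alcam fall, and Sele and Madcam1 stay near background; array 1 is highest in the wild type for Icam1 and in both channels for Selp.

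In none of the 6 tested members did the channel levels of the genotypes overlap. The same was true of 37.2% of the 16350 gene names with levels in both channels on all arrays. Ordered by ratio, the array ranges of neighbours among the falls overlapped: those of Icam1 and Mcam, of Mcam and Selp, and of Selp and Alcam. The ranges of Bst1 and Vcam1 did not overlap. The call and direction of each tested member held under each of 17 processing alternatives, including leaving out any 1 array. Values moved by over 1.5 times for Icam1 and Mcam, whose ratios reached −3.13 and −2.49 with the scanner software's own log ratio.

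**Figure D4:**
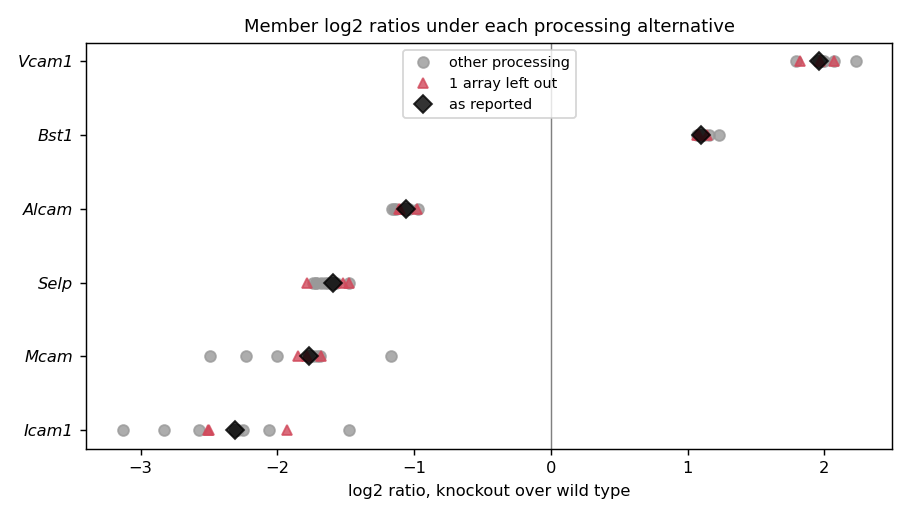
Mean log2 ratio of knockout over wild type (x axis) of the 6 tested members as reported (diamonds), with 1 array left out (triangles) and under other processing (circles). Each member stays on its side of 0, with ranges from −3.13 to −1.48 for Icam1, −2.49 to −1.17 for Mcam, −1.78 to −1.48 for Selp, −1.16 to −0.97 for Alcam, 1.07 to 1.23 for Bst1 and 1.79 to 2.23 for Vcam1.

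Some members have relatives beside them in the genome, by RefSeq gene order. Icam1 is followed by Icam4 and Icam5, and Bst1 by Cd38. Icam5, mainly a neuronal CAM, read 0.31, 0.67 and 0.4 and passed as higher where Icam1 fell (0.46 ± 0.19, adjusted p = 0.0458). That call was lost without array 2 (adjusted p = 0.259), without array 3 (0.205), with median centring (0.0784) and without the filter on dim probes (0.0543). Icam4 read −0.08 ± 0.21 (adjusted p = 0.692). Cd38 was above background on no array in either channel.

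The genes with the ratios most like those of Vcam1 and Icam1 over the 3 arrays were found by Euclidean distance among 2218 called, named genes. Nearest to Vcam1 were Tgif2, a transcriptional repressor (distance 0.25; 1.51, 2.03 and 2.15), the class I MHC gene H2-K1 (0.27; 1.92, 2.11 and 2.24) and the lymphangiogenic factor Vegfc (0.32; 1.77, 1.78 and 1.94). H2-K1 has close paralogs that can share its probe. Nearest to Icam1, with the same low ratio on array 1, were the glutathione transferase Mgst3 (0.34; −3.01, −1.78 and −2.24), the fibulin Efemp1 (0.36; −2.82, −2.12 and −1.8) and the protease Bace2 (0.4; −2.81, −1.64 and −1.82).

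Other molecules of endothelial adhesion and transmigration were a mixed group. Of 21 on the array 15 were tested, 2 rose and 1 fell, with a median of −0.11 against −0.01 for all genes. Over all genes tested, 8.02% were higher and 10.3% lower. These shares stand beside the counts of this and every list below. Cd34, a sialomucin that can present selectin ligands, rose 2.12-fold (1.02, 0.86 and 1.37; adjusted p = 0.00618). The membrane-bound chemokine Cx3cl1 rose 1.76-fold (0.81 ± 0.14, adjusted p = 0.00709), with its other probe at 0.18, and the junctional molecule Jam2 fell 1.94-fold (−0.96 ± 0.33, adjusted p = 0.0134). Icam2, Pecam1, Cdh5 and Glycam1 were too dim to test. Without array 1 the list had 4 rises and 4 falls, without array 2 it had 1 and 0, and without array 3 it had 0 of either.

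Of 23 further immunoglobulin CAMs 13 were tested, 2 rose and 1 fell, with a median of −0.04. Clmp, an adipocyte and junctional adhesion molecule listed in the files as 9030425E11Rik, rose 4.64-fold (1.57, 2.48 and 2.6; adjusted p = 0.00337). Its relative Cxadr, the coxsackievirus and adenovirus receptor, rose 2.02-fold (1.02 ± 0.12, adjusted p = 0.00328). Nrcam, best known from neurons, fell 1.76-fold (−0.82 ± 0.23, adjusted p = 0.0118). Without array 1 there were 4 rises and 3 falls, without array 2 there were 2 and 0, and without array 3 there were 1 and 0; Clmp kept its call each time.

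The partners of the members on leukocytes were mostly dim. Of 12 counter-receptor genes 11 were on the array and 8 were tested; none rose and 1 fell. Itgb7, the β subunit of the Madcam1 receptor α4β7, fell 2.07-fold (−0.69, −1.29 and −1.17; adjusted p = 0.00927), a call lost without array 2 (0.0816) or array 3 (0.091). Itga4, the α subunit of the Vcam1 and Madcam1 receptors, and Itgam were above background on no array in either channel. Itgb2, the β subunit of the Icam1 receptors, read 0.03 ± 0.24 (adjusted p = 0.916), Itgb1 −0.41 ± 0.45 (0.189), the Selp ligand Selplg 0.06 ± 0.09 (0.722) and the Alcam ligand Cd6 0.11 ± 0.17 (0.554). None of these partners but Itgb7 passed.

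Selectin ligands depend on enzymes that build their sugar and sulphate groups. Of 11 such genes on the array 10 were tested, 3 rose, 2 fell and 5 did not pass, with a median of −0.07. Gcnt1, which starts core 2 O-glycan branches, rose 2.6-fold (1.38, 1.57 and 1.18; adjusted p = 0.00193) and kept its call without any 1 array. The galactosyltransferase B4galt1 rose 2.3-fold (1.2 ± 0.26, adjusted p = 0.00421) and the tyrosine sulphotransferase Tpst1 1.59-fold (0.67 ± 0.05, adjusted p = 0.00952). Of the 3 tested B4galt1 probes, with ratios from 0.17 to 1.25, 2 were called. The sialyltransferase St3gal4 fell 1.75-fold (−0.8 ± 0.12, adjusted p = 0.00697), and the fucosyltransferase Fut7, above background in the knockout on 1 array only, fell 1.92-fold (−0.94 ± 0.51, adjusted p = 0.032). Without array 2 or without array 3 only Gcnt1 of these passed, and without array 1 there were 3 rises and 3 falls.

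Proteins that tie the tails of adhesion receptors to actin showed 0 rises and 2 falls among 13 tested, with a median of −0.15. The total called is near the 18.3% called over all genes. Ezrin, listed as Vil2, which binds the tails of several members, fell 1.61-fold (−0.62, −0.85 and −0.6; adjusted p = 0.012). The actin cross-linker Actn4 fell 1.9-fold (−0.93 ± 0.4, adjusted p = 0.0202). With median centring in place of loess, without array 2 and without array 3 neither passed, and without array 1 there were 1 rise and 6 falls.

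Among 8 proteases and regulators that release receptors from the surface, none rose and 3 fell, with a median of −0.26. Over all genes, 8.02% were higher and 10.3% lower. Rhbdf2, the iRhom that carries Adam17 to the surface, fell 6.83-fold (−2.88, −2.67 and −2.77; adjusted p = 0.000265), and its other probe fell too (−3.36). The metalloprotease Adam8, which can cleave several adhesion receptors, fell 3.69-fold (−1.98, −2.03 and −1.63; adjusted p = 0.000827). Both stayed called without any 1 array. Adam9 fell 1.63-fold (−0.71 ± 0.19, adjusted p = 0.0144), a call lost without array 2 (0.121), array 3 (0.072) or with median centring (0.19). The main sheddases themselves, Adam17 (0.26 ± 0.19, adjusted p = 0.183) and Adam10 (0 ± 0.13, adjusted p = 1), did not pass. Without array 1 there were 1 rise and 5 falls.

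Of 17 genes of the NF-kB system 16 were tested, none rose and 3 fell, with a median of −0.14. The total called is near the 18.3% called over all genes, of which 8.02% were higher and 10.3% lower. Traf1, an adaptor that NF-kB induces, fell 6.11-fold (−2.54, −2.8 and −2.49; adjusted p = 0.00033) and was above background in the knockout on 2 arrays. Tnfaip3 (A20), which limits the pathway and is also induced by it, fell 2.06-fold (−1.04 ± 0.08, adjusted p = 0.00262). The X-linked kinase subunit Ikbkg fell 1.87-fold (−0.9 ± 0.01, adjusted p = 0.00352; 0.057 without array 3), with its 4 tested probes between −0.9 and 0.01. The inhibitor Nfkbia (−0.13 ± 0.28, adjusted p = 0.562) and the subunit Rela (−0.37 ± 0.14, adjusted p = 0.0635), both central to the induction of Vcam1 and Icam1, did not pass. Without array 1 there were 4 rises and 6 falls. With the scanner software's log ratio, Traf1 read −4.6, Rhbdf2 −3.52, Fut7 −2.58 and Nrcam −1.73.

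Among receptors for signals that induce adhesion molecules, all 13 were tested, 6 rose, none fell and 7 did not pass, with a median of 0.48. Over all genes tested, 8.02% were higher. Il13ra1, an X-linked chain of the IL-4 and IL-13 receptor, whose ligands induce Vcam1 in endothelium, rose 3.92-fold (1.84, 2.15 and 1.93; adjusted p = 0.000561). The TNF receptor Tnfrsf1b rose 2.47-fold (1.3 ± 0.22, adjusted p = 0.00274), with its other probe at 0.22, and the IL-1 receptor Il1r1 rose 2.1-fold (1.07 ± 0.09, adjusted p = 0.00252). These 3 kept their calls without any 1 array. Il1rap, the co-receptor of Il1r1, rose 1.86-fold (0.89 ± 0.49, adjusted p = 0.0343) and Il4ra 1.7-fold (0.77 ± 0.35, adjusted p = 0.027), but neither passed without array 2 or without array 3. Of the 3 tested Il1rap probes, with ratios from 0.21 to 0.89, only 1 was called. The list had 3 rises without array 2, 3 without array 3, 4 with median centring, and 7 with 1 fall without array 1.

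**Figure D5:**
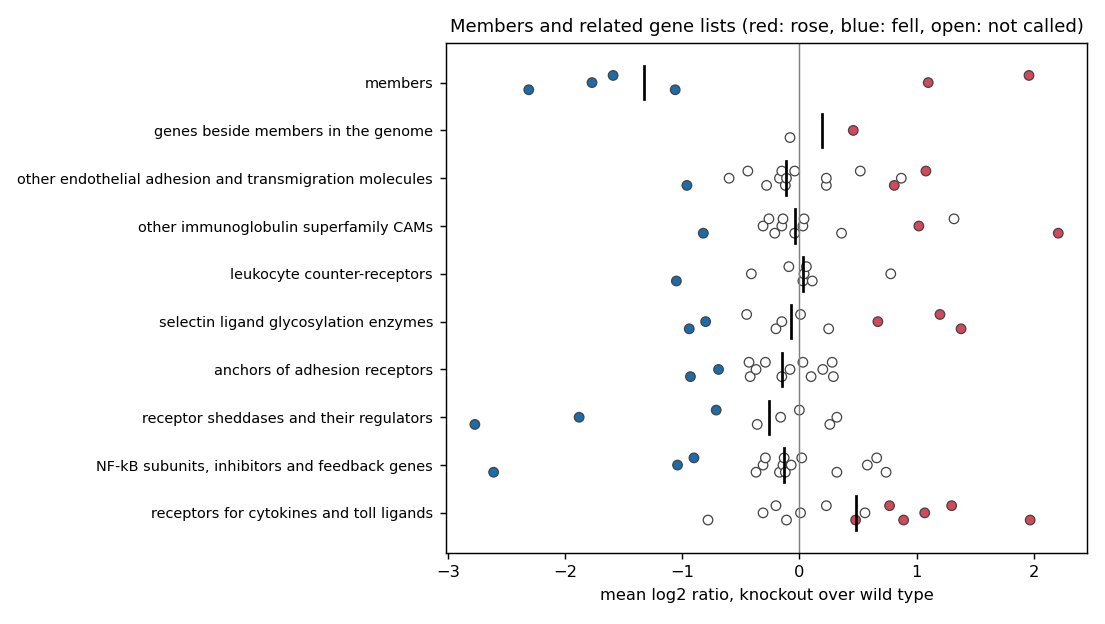
Mean log2 ratio of knockout over wild type (x axis) of each tested gene in the member set and 9 related lists (rows), with filled circles for genes that rose or fell at an adjusted p under 0.05, open circles for the others and a bar at each list's median. The members have a median of −1.33 and the receptors for cytokines and toll ligands one of 0.48, while the medians of the other lists lie between −0.26 and 0.19.

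Markers of other cell types differed between the channels in the same RNA. Over all genes tested, 8.02% were higher and 10.3% lower. Of 11 fibroblast markers 10 were tested, 8 rose and 1 fell, with a median of 1.77, the direction of Vcam1 and Bst1. Without array 1, 2 or 3 the rises numbered 9, 5 and 3, and the falls 1, 0 and 0. Their summed log2 level was 17.7 to 17.86 in the knockout and 17.46 to 17.7 in the wild type. On all arrays, 10 of the 11 had a probe above background in the knockout and 9 in the wild type. Fap was above it on no array. Col3a1 (log2 ratio 3.09, with its other probe at 1.21) and Dcn (2.7) rose most. The marker that fell was Col1a2 (−0.7), a call lost with median centring. Of 12 mesothelial and epithelial markers 11 were tested, none rose and 8 fell, with a median of −1.41, the direction of Icam1, Selp, Mcam and Alcam. Without array 1, 2 or 3 the falls numbered 9, 5 and 5. Their summed level was 13.47 to 13.81 in the knockout and 16.31 to 16.62 in the wild type. On all arrays, 8 of the 12 had a probe above background in the knockout and 9 in the wild type. Epcam was above it on no array. Krt19 (log2 ratio −4.12) and Msln (−3.41) fell most.

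Of 10 smooth muscle and pericyte markers, a type in which Mcam is also found, 8 were tested, 1 rose and 3 fell, with a median of −0.54. Without array 1, 2 or 3 the falls numbered 5, 2 and 1, and the rises 1, 0 and 0. Their summed level was 15.79 to 15.86 in the knockout and 15.74 to 16.04 in the wild type. On all arrays, 6 of the 10 had a probe above background in the knockout and 8 in the wild type. Rgs5 was above it on no array. Cspg4 fell most (log2 ratio −2.57), and Pdgfrb rose (0.77). Of 12 leukocyte and macrophage markers 7 were tested, 1 rose and 2 fell (2, 2 and 1 falls and 1, 0 and 0 rises without array 1, 2 or 3), with summed levels of 11.46 to 11.66 in the knockout and 12 to 12.39 in the wild type. Adgre1, Itgam, C1qa and Tyrobp were above background on no array, and the pan-leukocyte marker Ptprc on 1 in the wild type only. On all arrays, 7 of the 12 had a probe above background in the knockout and 6 in the wild type. Lyz2 (log2 ratio −1.78) and Cd14 (−0.87) fell, and Fcgr3 rose (0.8). The endothelial markers summed to 13.05 to 13.46 in the knockout and 12.1 to 12.31 in the wild type; 2 of 6 tested rose (Eng, log2 ratio 2.51, and Egfl7, 1.42) and none fell. The part of cell composition in the members' differences was not tested.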

How the data were processed

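The files hold, for each of 45018 spots on each of 3 two-colour arrays, the deposited pixel intensity and that of the local background for each dye. They were written by the scanner software Agilent Feature Extraction, version 9.5.3.1 according to the submitters' processing notes. The deposited log10 ratio of red over green is the software's own, per the file headers, and the deposited value table was identical to it. All arrays came from 1 slide and 1 scan.

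From mean intensities and median local backgrounds, log2 ratios were computed with limma 3.58.1 in R 4.3.3 (with statmod 1.5.0 for array weights): normexp with offset 50, loess within arrays, 1639 control spots and outlier-flagged spots (121, 140 and 136 on arrays 1 to 3) at weight 0, and spots of 1 probe averaged. With this offset, ratios of dim probes are drawn towards 0. Mean ratios were tested against 0 (lmFit, then eBayes, which gave 3.46 prior degrees of freedom). P-values were adjusted by Benjamini-Hochberg over the 25076 probes that exceeded background clearly, in the same channel, on 2 or more arrays. The threshold was 0.05. A gene name was represented by its brightest tested probe. Channel levels were taken after loess and Aquantile normalisation, and a list's summed level is the log2 of its summed linear intensities. The pipeline was tested on simulated intensities.

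The members and the lists were chosen with earlier results of these data known. The named genes were all members and their probes, Pim1, Xist, Eif2s3y and Ddx3y, up to 5 called genes of each list (the largest ratios), partners of the members, the 3 genes nearest in pattern to the members with the largest rise and fall, and defining markers of cell types. The other genes named, among them Icam2, Glycam1, Nfkbia, Rela, Adam10, Adam17 and the markers at background, were singled out after their values were seen. A listed gene is not reported here. Thy1, Esam, Pecam1, Cdh5, Itgam and Itgb2 each stand in 2 lists. Alternatives covered background correction, pixel summary, normalisation, filters, variance model, weights, threshold, the choice of probe and each array left out.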

Additional observations from a re-analysis of the deposited data

How the results depend on the processing

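All 6 tested members kept their direction and their call in each of 17 alternatives, with largest adjusted p-values of 0.0177 for Vcam1, 0.0365 for Icam1, 0.0381 for Selp, 0.0164 for Mcam, 0.0459 for Alcam and 0.0375 for Bst1. Of these alternatives, Aquantile normalisation could not change a call, and the threshold of 0.01 reused the reported fit. The bound of the dimmer Icam1 probe was 1.51-fold with quantile normalisation of the channels in place of 1.57-fold. The counts over the whole array were less stable. Of 16365 genes tested, 2994 were called as reported, 5076 with array weights and 1030 at an adjusted p under 0.01, and between 679 and 6290 with 1 array left out (6290 without array 1, 712 without array 2 and 679 without array 3). Of 25076 probes tested, 4298 were called as reported, 2724 with median centring, 7358 with array weights and 1375 at an adjusted p under 0.01, and between 873 and 9172 with 1 array left out (9172 without array 1). The cause was not tested. Median centring, which moved the median of all genes to 0.07, called 2030 genes, of which 56.2% were higher against 43.8% with loess; the share was 34.5% at an adjusted p under 0.01, 49.2% with array weights, 50.5% without array 1, 31.7% without array 2 and 28.6% without array 3. The direction of each tested member was the same under every one of these scalings. Medians of related lists near 0 changed sign: with median centring, that of the other endothelial adhesion molecules was 0.05 and that of the other immunoglobulin CAMs 0.02, and with the scanner software's log ratio that of the counter-receptors was −0.16. The ratios compare the genotypes within each array. Testing these ratios against 0 is thus already paired by array. Beyond that no pairing was possible, because the arrays form 1 group and no number is shared between groups. Signal over background limits what can be said of Sele, Madcam1, the 3rd Vcam1 probe and the dimmer Icam1 probe.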
